A study of Mus musculus with 8 samples.

Results

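The genes of the constitutive proteasome were followed through resting and germinal centre B cells of the mouse. They were taken as the probe sets whose single annotated gene symbol begins with Psma, Psmb, Psmc, Psmd or Psmg and a number, without Psmb8, Psmb9 and Psmb10, which encode the subunits of the immunoproteasome. The rule found 50 of 12488 probe sets and 39 of the 8252 genes with a probe set of their own. One of them, Psmc3ip, encodes a factor of meiotic recombination and no proteasome subunit, was above the detection floor on 0 of 8 arrays and was set aside. The remaining 38 genes were 7 core alpha subunits, 7 core beta subunits, 6 ATPases and 11 non-ATPase subunits of the regulatory particle, and 7 assembly chaperones. A gene with several probe sets, which applied to 7 genes, was represented by the brightest. Probe sets above the floor of 81 intensity units on at least 2 arrays were tested, which kept 34 of the 38 genes. Psmd1, Psmd10 and Psmd12 were above the floor on 0 arrays and Psmd2 on 1, and these probe sets gave no level. Of the 34 genes, 30 were above the floor on all 8 arrays, and every gene called with all 8 arrays in the fit belongs to these 30.

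The proteasome is the protease that degrades proteins tagged with ubiquitin. Its core particle is a stack of rings: the outer rings of alpha subunits gate the entrance, and the inner rings of beta subunits hold the proteolytic sites. The regulatory particle caps the core. Its ring of ATPases unfolds the substrate and opens the gate, and its other subunits bind ubiquitin chains, remove them and hold the complex together. The transcription factor encoded by Nfe2l1 is known to raise subunit genes together when proteasome activity falls short, and in antibody-secreting cells the protease disposes of misfolded immunoglobulin.

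Gene expression was measured on 8 Affymetrix arrays, 2 for each of 4 groups of B cells sorted from F1 mice of the QM and B6 strains. QM mice are known to carry a knocked-in antibody heavy chain that can recognise the hapten NP, so responding B cells are more uniform than in ordinary mice. Every array held RNA of cells pooled from 4 to 10 mice, and the labels call the replicates biological. Resting cells were GL7-negative, B220-positive B cells of unimmunised mice, and the germinal centre cells of the other groups were GL7-positive and B220-positive. The TD day 4 group (T-dependent) was primed with 50 µg of alum-precipitated chicken gamma-globulin and heat-killed B. pertussis. After 5 weeks it received 50 µg of soluble NP-CGG as a challenge and was sorted on day 4. The TD day 10 group was not primed, received 50 µg of alum-precipitated NP-CGG with heat-killed B. pertussis, and was sorted on day 10. The TI day 4 group (T-independent) received 30 µg of NP-Ficoll and was sorted on day 4. The study set T-dependent against T-independent germinal centre cells, with the primed group matched to the T-independent one in time.

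Intensities are linear, and differences are log2 differences between group means with values under 81 set to 81. Array medians were 77 to 89. Because each array was scaled to a like average, a difference is relative to that average, and in bulk samples fewer cells of a type and less RNA per cell cannot be told apart. The summed intensity of 6 measured genes of germinal centre B cells was 2002 to 2396 in resting cells, 4828 to 5679 in the TD groups and 3464 to 3531 in TI day 4. In TI day 4 Gcsam read 156 and 131, near its 154 and 101 in resting cells, against 501 to 768 on the TD arrays. Bcl6, Mki67, S1pr2, Mef2b and Fas lay between resting and TD cells there. All 7 measured B cell genes were above the floor on every array. Summed red cell genes (6 measured) were 23129 to 25570 in resting cells and 808 to 2884 in germinal centre cells, and summed neutrophil genes (8 measured) 6542 to 6675 and 1734 to 2823. The red cell gene Slc4a1 went the other way in TI day 4, at 1700 and 2317 against 724 and 707 in resting cells. Summed T cell genes (8 measured) were 522 to 523 in resting cells, 632 to 941 on the TD arrays and 535 to 563 on the TI arrays. Cd4 was above the floor on all 8 arrays (292 to 710), Cd247 and Cd3g lay near it, and Cd3d, Cd3e, Cd8a, Cd5 and Thy1 were under it on every array. Summed plasma cell genes (6 measured) were 10289 and 13728 on the TI arrays, against 2844 to 4167 on the TD arrays and 2135 to 2255 in resting cells. Jchain made up most of the TI sum (7347 and 9356). Xbp1 and Tnfrsf17 were also highest on the TI arrays, Irf4 overlapped resting cells, and Sdc1 and Prdm1 were near or under the floor throughout. Summed macrophage genes (11 measured) were 5808 to 6747 on the TI arrays, 1913 to 2972 on the TD arrays and 3730 to 4007 in resting cells. Most of the TI sum was Apoe (4213 and 3371, against 434 and 775 in resting cells). C1qb (871 and 1066) and Cd14 (824 and 849) were also highest on the TI arrays, and Csf1r and Cd68 overlapped resting cells. C1qa went the other way, at 130 and -13 in TI day 4 and 708 and 597 in resting cells. C1qc, Lyz2 and Vcam1 were also lower in TI day 4 than in resting cells. The ratio of 3' to 5' signal at the Gapdh controls, a sign of RNA quality, was 0.836 to 0.981 on the TD arrays, 1.24 and 1.68 on the TI arrays, and 0.867 and 1.59 on the resting arrays. The part of these markers and ratios in the results was not tested, except that a fit with the Gapdh ratio as a covariate is given below.

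Some proteasome genes rose from resting to T-dependent germinal centre cells, among them alpha subunits, ATPases and non-ATPase subunits. On the brightest probe sets, 0 of 7 beta subunits and 0 of 6 chaperones were called. In classes this small, 0 is near the share of all probe sets called higher, so it sets neither class apart. Other probe sets of the beta gene Psmb1 were called in TD day 10, as described below. In limma at an adjusted p under 0.05, 5 of the 34 genes rose in TD day 4 (14.7%) and 8 rose in TD day 10 (23.5%). Over all probe sets tested, 9.42% were called in TD day 4 (5.83% higher) and 10.9% in TD day 10 (6.45% higher). In TI day 4, 2 genes rose and 1 fell, where 9.4% of all probe sets were called, 5.42% higher and 3.98% lower. In the mean of the 3 germinal centre groups, 8 genes rose (23.5%), against 13.2% of all probe sets called and 7.73% called higher. The 4 comparisons share the resting arrays, so they are not independent of each other.

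The median difference from resting over the 34 genes was 0.46 for TD day 4, 0.47 for TD day 10 and 0.16 for TI day 4, where the medians of all probe sets were -0.02, 0.04 and -0.02. Over the 30 genes above the floor on all arrays it was 0.50, 0.49 and 0.24. Calls of single genes in 1 group were kept in between 5 of 21 alternatives (Psmc2 in TD day 10) and 17 of 20 (Psmd14 in TD day 4). The counts rest on few arrays. In nearly every fit without an array, the share of all probe sets called against resting was lower too. A low count in such a fit therefore cannot be read as particular to these genes. Without TD day 4 replicate 1 or 2, 0 genes were called in TD day 4, and 2 without resting replicate 2. In TD day 10, 0 were called without TD day 10 replicate 2, 2 without TD day 10 replicate 1 (1 of them lower, Psmg3, where the array at 22 then stands alone), 2 without resting replicate 2, 5 without resting replicate 1, and 4 without any 1 of the TD day 4 or TI day 4 arrays. In TI day 4, 1 was called without resting replicate 1, resting replicate 2 or TI day 4 replicate 2, and 0 without any 1 of the other 5 arrays. For the mean of the germinal centre groups, 2 were called without resting replicate 2, 3 without TD day 10 replicate 2, 4 without either TD day 4 array, and 5 without TD day 10 replicate 1 or either TI array.

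**Figure D1:**
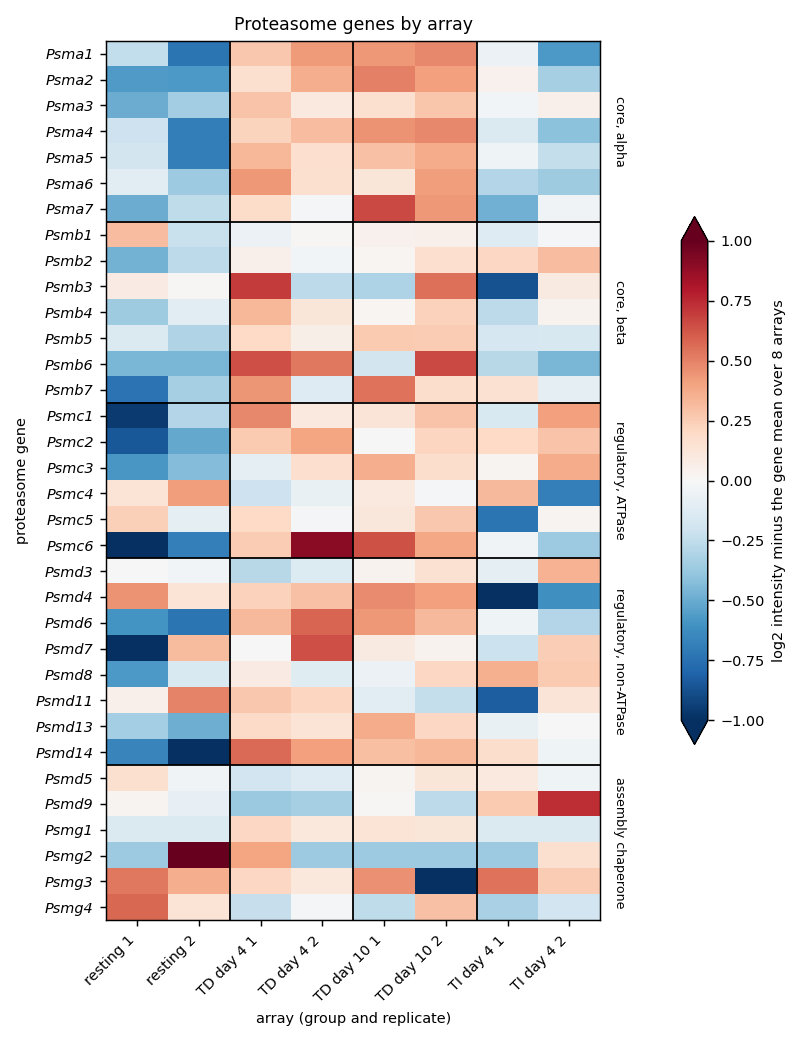
Each row is 1 of the 34 tested proteasome genes, ordered by class, and each column 1 of the 8 arrays. Colour is the log2 intensity minus the gene's mean over the arrays, with the scale ending at 1 in either direction, and the core alpha rows are low on both resting arrays and high on the 4 TD arrays.

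The alpha subunits form the outer rings and the gate of the core. All 7 were higher in each TD group than in resting cells without overlap between arrays, a pattern found in 22.8% of all probe sets in TD day 4 and 25.9% in TD day 10. Psma2 was the alpha gene called most widely. It read 1066 and 1059 in resting cells, 1759 and 2023 in TD day 4, 2237 and 2089 in TD day 10, and 1620 and 1250 in TI day 4. Every germinal centre array was above both resting arrays, and both TI arrays were below all 4 TD arrays. Psma2 rose 1.78-fold in TD day 4 (0.83 ± 0.19 SE on the log2 scale, limma adjusted p = 0.045) and 2.04-fold in TD day 10 (adjusted p = 0.021). In TI day 4 its difference from resting was 0.42 ± 0.19 (adjusted p = 0.25).

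Psma4 and Psma7 rose in TD day 10. Psma4 read 570 and 407 in resting cells, 769 and 814 in TD day 4, 901 and 917 in TD day 10, and 594 and 494 in TI day 4, and was 1.89-fold higher in TD day 10 (0.92 ± 0.21, limma adjusted p = 0.044). Its TI arrays overlapped the resting arrays. Psma7 read 830 and 983, 1330 and 1165, 1851 and 1579, and 842 and 1143 in the same order of groups, and was also 1.89-fold higher in TD day 10 (0.92 ± 0.22, adjusted p = 0.047). TD day 10 held its highest arrays. Psma3 was called only for the mean of the germinal centre groups (1.48-fold, 0.56 ± 0.13, limma adjusted p = 0.04). It read 1002 and 1113 in resting cells, 1719 and 1515 in TD day 4, 1578 and 1712 in TD day 10, and 1383 and 1465 in TI day 4. The TI arrays of Psma3 lay between the resting and the TD arrays, and its probe set is of a kind that can match several genes of a family.

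Psma1, Psma5 and Psma6 passed in no comparison. Psma1 read 372 and 267 in resting cells, 534 and 595 in TD day 4, 596 and 617 in TD day 10, and 425 and 297 in TI day 4. Psma6 read 1207 and 1015, 1759 and 1458, 1419 and 1746, and 1063 and 1022 in the same order. In both genes the TI arrays overlapped the resting arrays and stayed below every TD array. Psma5 ranged from 447 to 635 in resting cells, 612 to 702 in TI day 4 and 812 to 934 over the TD arrays.

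**Figure D2:**
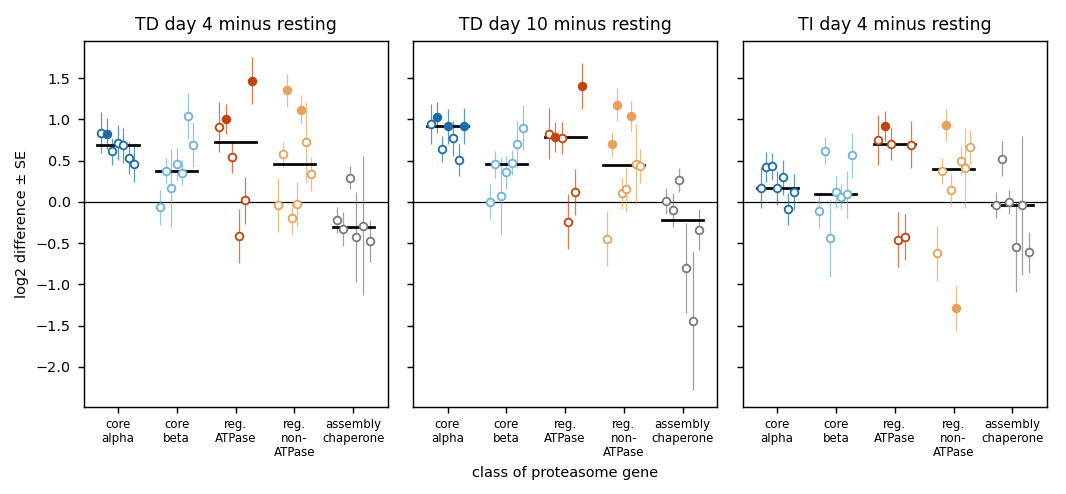
Points are the log2 difference from resting cells with its standard error, for each proteasome gene by class, with a panel for each germinal centre group; filled points passed at an adjusted p under 0.05 and bars mark class medians. The alpha median is 0.69 for TD day 4, 0.92 for TD day 10 and 0.17 for TI day 4, while the ATPase median is 0.73, 0.78 and 0.70. In TI day 4, 2 of the 6 ATPases lie below 0.

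The beta subunits form the inner rings. On the brightest probe sets 0 of 7 were called in limma in any of the 7 comparisons. At an unadjusted p under 0.05, 2 were higher for TD day 4, 4 for TD day 10 and 1 for TI day 4. Of all 7253 probe sets, 889, 963 and 875 were higher at that p in the same groups. The median difference of the beta genes from resting was 0.38, 0.46 and 0.09 in these groups. These counts and medians include the dim gene Psmb6, which was tested mainly because of its TD arrays. Psmb6 is among the genes counted for TD day 4 and TD day 10, and the 0.09 is its own value. With both resting arrays of Psmb6 under the floor, that median says little about the class. Of the catalytic subunits, Psmb5, which carries the chymotrypsin-like activity, read 544 and 490 in resting cells, 692 and 628 in TD day 4, 721 and 717 in TD day 10, and 537 and 540 in TI day 4. On this probe set the TI arrays lay within the resting range and below all TD arrays. The difference of Psmb5 was 0.48 ± 0.15 in TD day 10 (limma adjusted p = 0.11) and 0.06 ± 0.15 in TI day 4 (adjusted p = 0.88). A dimmer probe set of Psmb5 disagreed: it read 644 and 596 in resting cells, 424 and 628 in TD day 4, 704 and 661 in TD day 10, and 423 and 412 in TI day 4. There the TI arrays were below both resting arrays (-0.57 ± 0.22, limma adjusted p = 0.18).

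Psmb6, which carries the caspase-like activity, was dim: -22 and -96 in resting cells, 174 and 160 in TD day 4, 98 and 176 in TD day 10, and 92 and -174 in TI day 4. It stayed under the floor in resting cells and above it on the TD arrays, and passed the filter through those arrays, so its rank among the beta genes says little. Psmb7, which carries the trypsin-like activity, ranged from 555 to 736 in resting cells and from 847 to 1349 over the germinal centre arrays. Psmb4, a structural subunit, read 1312 and 1548 in resting cells, 2110 and 1819 in TD day 4, 1697 and 1962 in TD day 10, and 1396 and 1721 in TI day 4, with TI arrays overlapping resting ones. Psmb2, another structural subunit, went the other way among the germinal centre groups. It ranged from 737 to 853 in resting cells, 1002 to 1144 over the TD arrays and 1177 to 1265 in TI day 4 (0.62 ± 0.16 above resting, limma adjusted p = 0.069).

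The probe sets of Psmb1 disagreed too, as was noticed after its values were seen. The brightest read 2663 and 1838 in resting cells and 1965 to 2226 in germinal centre cells, and was not called. Another read 865 and 1003 in resting cells and 1321 to 1584 in germinal centre cells, and rose in the mean of the germinal centre groups (0.65 ± 0.13, limma adjusted p = 0.025) and in TD day 10 (adjusted p = 0.042). A further, dim one was above the floor on the germinal centre arrays alone and was also called in TD day 10 (limma adjusted p = 0.049). Psmb3 varied within groups, from 411 to 799 in TI day 4 and 606 to 1100 in TD day 10.

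The ATPases form the ring of the regulatory particle that sits on the core. Their median difference from resting was 0.73 for TD day 4, 0.78 for TD day 10 and 0.70 for TI day 4, where that of the alpha genes was 0.69, 0.92 and 0.17. This gap between the classes was not tested. In TI day 4, 4 ATPases were above and 2 below resting. The ATPase median there also depends on the probe set of Psmc3: the brightest gave 0.71, and its others gave 0.08 and 0.82. Psmc2 read 229 and 288 in resting cells, 494 and 541 in TD day 4, 411 and 478 in TD day 10, and 473 and 502 in TI day 4. All 6 germinal centre arrays were above both resting arrays. The TI arrays overlapped those of each TD group, and TD day 10 lay below TD day 4. Psmc2 rose 2.01-fold in TD day 4 (limma adjusted p = 0.023), 1.73-fold in TD day 10 (adjusted p = 0.046) and 1.90-fold in TI day 4 (adjusted p = 0.03). For the mean of the germinal centre groups the difference was 0.91 ± 0.15 (adjusted p = 0.013). The call for this mean was kept in 19 of 19 alternatives, that for TD day 4 in 16 of 20, for TD day 10 in 5 of 21 and for TI day 4 in 8 of 20.

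Psmc6 had the widest range of the ATPases called. It read 150 and 201 in resting cells, 385 and 601 in TD day 4, 501 and 422 in TD day 10, and 315 and 251 in TI day 4. The groups fell in order without overlap, with TI between resting and TD. Psmc6 rose 2.77-fold in TD day 4 (1.47 ± 0.28, limma adjusted p = 0.028) and 2.65-fold in TD day 10 (adjusted p = 0.029). In TI day 4 its difference was 0.70 ± 0.28 (adjusted p = 0.21). Psmc3 was called for the mean of the germinal centre groups (1.60-fold, 0.68 ± 0.16, limma adjusted p = 0.043) and read 482 and 535, 678 and 813, 929 and 816, and 736 and 932 from resting to TI day 4. Its TI arrays overlapped the TD arrays, and this probe set too can match several genes of a family. Another probe set of Psmc3 read 290 and 243 in resting cells, 344 to 441 over the TD arrays, and 281 and 280 in TI day 4, with TI level with resting, and was not called (limma adjusted p = 0.16 for the germinal centre mean).

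Psmc5 did not follow. It read 1324 and 1050 in resting cells, 1285 and 1109 in TD day 4, 1217 and 1351 in TD day 10, and 676 and 1142 in TI day 4, and 1 TI array stood alone at the low end. Psmc1 ranged from 141 to 223 in resting cells and from 246 to 380 over the germinal centre arrays without passing (0.83 ± 0.25 for their mean, limma adjusted p = 0.086). Psmc4 ranged from 375 to 457 in resting cells and 213 to 427 in germinal centre cells.

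The promoters of Psmc2, Psmc6, Psmd14 and Psmd4 are shown because they are the genes called in all 3 germinal centre groups, the gene with the largest rise, and the gene that fell. Each sequence is the 250 bases upstream of the gene's start in RefSeq (GRCm38.p6), 5′ to 3′ on the gene's strand. They lie at chr5:21785025-21785274 (+ strand), chr14:45329574-45329823 (+), chr2:61711444-61711693 (+) and chr3:95042615-95042864 (- strand). Capitals mark matches, on either strand, to TGANNNNGC, the core of the element read by the Nfe2l1 and Nfe2l2 factors, or to CCAAT.
Psmc2: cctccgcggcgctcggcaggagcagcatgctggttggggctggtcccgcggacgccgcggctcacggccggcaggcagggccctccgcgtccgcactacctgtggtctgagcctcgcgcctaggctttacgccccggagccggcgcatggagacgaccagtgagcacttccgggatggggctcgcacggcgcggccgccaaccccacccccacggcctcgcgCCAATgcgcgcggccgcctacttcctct
Psmc6: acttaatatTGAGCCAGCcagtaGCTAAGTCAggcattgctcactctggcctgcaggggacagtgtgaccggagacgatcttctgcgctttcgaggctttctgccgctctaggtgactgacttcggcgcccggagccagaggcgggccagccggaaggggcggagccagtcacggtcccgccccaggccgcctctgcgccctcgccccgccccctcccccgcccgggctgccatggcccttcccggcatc
Psmd14: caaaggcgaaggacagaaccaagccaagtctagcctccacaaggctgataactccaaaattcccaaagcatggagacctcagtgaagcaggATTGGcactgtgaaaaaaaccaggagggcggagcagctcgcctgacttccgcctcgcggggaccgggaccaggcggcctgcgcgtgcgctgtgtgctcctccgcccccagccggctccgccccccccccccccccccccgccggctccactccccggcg
Psmd4: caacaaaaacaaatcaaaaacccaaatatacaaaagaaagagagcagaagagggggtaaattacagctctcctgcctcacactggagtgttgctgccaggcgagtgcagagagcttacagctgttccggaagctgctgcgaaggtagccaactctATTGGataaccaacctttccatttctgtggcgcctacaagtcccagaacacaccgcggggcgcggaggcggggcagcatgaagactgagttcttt
Psmc6 held 2 matches to TGANNNNGC, and Psmc2, Psmd14 and Psmd4 each held 1 to CCAAT. Of the 38 genes, 31 had a promoter in the RefSeq table. TGANNNNGC was found in 12 of the 31 (38.71%) and in 35.143% of all 27018 promoters of that length, and CCAAT in 11 (35.484%) and in 34.47%. Among core genes TGANNNNGC was found in 5 of 11 and CCAAT in 6 of 11, and among regulatory genes in 3 and 4 of 14. A match describes letters in this window and is not a binding site.

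Among the non-ATPase subunits Psmd14, the deubiquitinase that removes ubiquitin chains from substrates at the entrance, was called in all 3 germinal centre groups, as Psmc2 was. It read 333 and 249 in resting cells, 776 and 698 in TD day 4, 646 and 660 in TD day 10, and 593 and 511 in TI day 4. All germinal centre arrays were above both resting arrays, and both TI arrays were below the TD arrays. Psmd14 rose 2.56-fold in TD day 4 (1.35 ± 0.20, limma adjusted p = 0.012), 2.27-fold in TD day 10 (adjusted p = 0.016) and 1.91-fold in TI day 4 (adjusted p = 0.036). The call for the mean of the germinal centre groups (2.23-fold, limma adjusted p = 0.0071) was kept in 19 of 19 alternatives. The calls for TD day 4, TD day 10 and TI day 4 were kept in 17 of 20, 17 of 21 and 8 of 20.

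Psmd6, a scaffold subunit of the lid, read 269 and 245 in resting cells, 509 and 611 in TD day 4, 550 and 509 in TD day 10, and 396 and 333 in TI day 4. It rose 2.17-fold in TD day 4 (1.12 ± 0.18, limma adjusted p = 0.016) and 2.06-fold in TD day 10 (adjusted p = 0.018). The TI arrays lay between resting and TD arrays without overlap (0.50 ± 0.18 above resting, adjusted p = 0.16). Psmd13, also of the lid, read 363 and 329, 526 and 507, 594 and 531, and 438 and 458 from resting to TI day 4, in the same order. Psmd13 rose 1.63-fold in TD day 10 (0.70 ± 0.15, limma adjusted p = 0.038).

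Psmd4, a receptor for ubiquitin chains, was the gene that fell. It read 391 and 314 in resting cells, 336 and 351 in TD day 4, 397 and 381 in TD day 10, and 110 and 187 in TI day 4, so both TI arrays were below the other 6. Psmd4 was 2.44-fold lower in TI day 4 than in resting cells (-1.29 ± 0.27, limma adjusted p = 0.037). The difference was -1.26 ± 0.27 from TD day 4 (adjusted p = 0.097) and -1.44 ± 0.27 from TD day 10 (adjusted p = 0.06). The call against resting was kept in 7 of 20 alternatives, with adjusted p from 0.014 to 0.21.

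The other non-ATPase subunits passed in no comparison. Psmd8 ranged from 530 to 708 in resting cells, 724 to 907 over the TD arrays and 943 to 1008 in TI day 4, so TI lay above TD where in the alpha genes it lay below. Psmd3 ranged from 629 to 970, Psmd11 from 522 to 1305 on its brightest probe set and Psmd7 from 146 to 495 over the 8 arrays. The TI and resting arrays overlapped in each. On another probe set of Psmd11 both TI arrays (645 and 798) were below both resting arrays (875 and 811), without a call. A further, dimmer one overlapped.

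**Figure D3:**
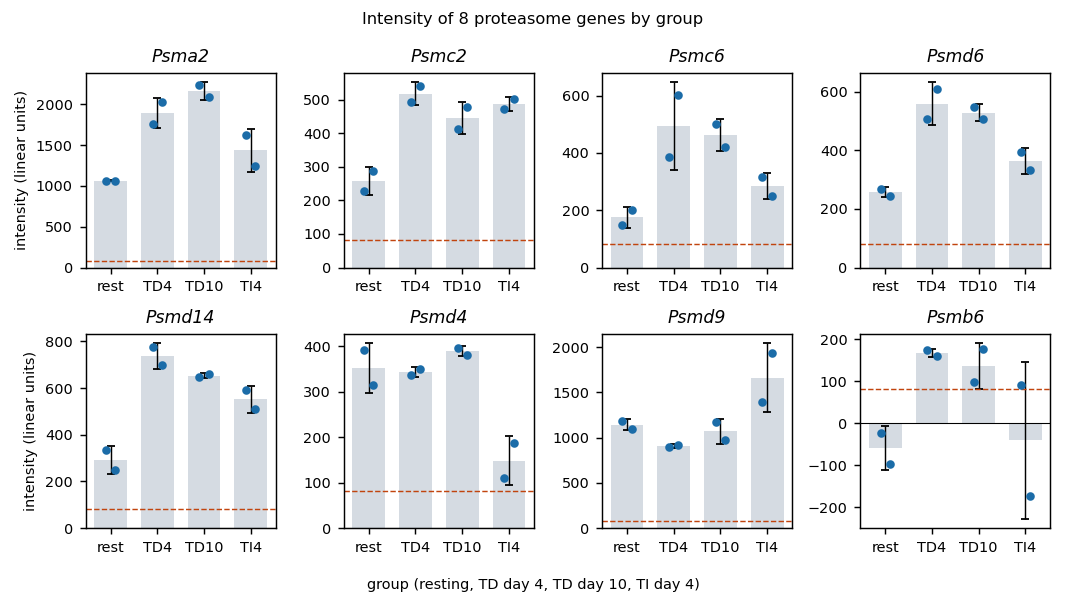
Bars are group means of intensity with the SD of 2 arrays, points are arrays, and the dashed line is the floor of 81. Psma2, Psmc6, Psmd6 and Psmd14 are lowest in resting cells and lower in TI than in TD cells, Psmc2 is alike in the 3 germinal centre groups, Psmd4 is lowest and Psmd9 highest in TI day 4, and Psmb6 is near the floor.

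The assembly chaperones bind subunits on the way to the finished particle. In limma 0 of 6 tested were called in any of the 7 comparisons. Psmd9, which helps to assemble the ATPase base, read 1185 and 1098 in resting cells, 896 and 922 in TD day 4, 1169 and 969 in TD day 10, and 1391 and 1932 in TI day 4. Both TI arrays were above all others. The difference from TD day 4 was 0.85 ± 0.21 (limma adjusted p = 0.14), and the probe set was designed under relaxed rules. Psmd5, another base chaperone, read 631 and 550, 493 and 517, 574 and 612, and 604 and 547 in the 4 groups. Psmg1, which starts the alpha ring, read 5 and 47 in resting cells, 103 and 96 in TD day 4, 98 and 97 in TD day 10, and 31 and 45 in TI day 4, so only TD arrays passed the floor. Psmg2 lay near the floor, Psmg4 ranged from 482 to 898, and Psmg3 read 476 to 647 on 7 arrays and 22 on TD day 10 replicate 2.

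T-independent cells were then set against T-dependent cells directly. In limma 0 of 34 genes were called in TI day 4 against TD day 4, where 1.45% of all probe sets were, and 0 against TD day 10, where 2.4% were. At an unadjusted p under 0.05, 1 gene was higher and 7 lower against TD day 4, and 1 higher and 9 lower against TD day 10. Over the 30 genes above the floor on all 8 arrays, 1 was higher and 6 lower against TD day 4. Against TD day 10, 1 of these was higher and 9 lower. Of all 7253 probe sets, 482 were higher and 562 lower at that p against TD day 4, and 561 and 687 against TD day 10. With the floor at the 60th percentile Psmd4 was called lower in both comparisons, and with array weights in the second. Both comparisons share the TI arrays.

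The estimates lay mostly on one side. Psmb6 and Psmg1 passed the filter mainly or wholly through TD arrays, so the counts are given over the 30 genes above the floor on all 8 arrays. Against TD day 4 the difference was below 0 for 24 of 30 genes, 12 of 13 core genes and all 7 alpha genes, with a median of -0.30, where that of all probe sets was -0.01. Against TD day 10 it was below 0 for 25 of 30, 12 of 13 and all 7, with a median of -0.26 and -0.08 for all probe sets. Both TI arrays were below both TD day 4 arrays for 15 of 30 genes and all 7 alpha genes, a pattern found in 23.7% of all probe sets. For TD day 10 these were 16 of 30 and all 7 alpha genes, against 29.3%. All 7 alpha estimates stayed below 0 in each of the 21 alternatives run against TD day 4 and the 20 run against TD day 10. Because the arrays of these genes did not overlap, leaving out an array could not turn a sign. Refits with another prior or only the arrays compared use the same values, so they could not turn one either.

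The alpha gene with the smallest adjusted p against TD day 4 was Psma6 (-0.62 ± 0.19, limma adjusted p = 0.22), followed by Psma1 (-0.67 ± 0.25, adjusted p = 0.29) and Psma4 (-0.55 ± 0.21, adjusted p = 0.31). Of the beta genes Psmb6, with 1 TI array under the floor, gave at most -0.95 (limma adjusted p = 0.2), Psmb5 -0.29 ± 0.15 (adjusted p = 0.48) and Psmb4 -0.34 ± 0.20 (adjusted p = 0.55). The sign of Psmb4 turned when all its tested probe sets were averaged. Of the ATPases Psmc6 gave -0.77 ± 0.28 (limma adjusted p = 0.29), Psmc5 -0.44 ± 0.28 (adjusted p = 0.59) and Psmc3 0.16 ± 0.20 (adjusted p = 0.82). Psmd6 gave -0.62 ± 0.18 (limma adjusted p = 0.19), Psmd14 -0.42 ± 0.20 (adjusted p = 0.44) and Psmd5 0.19 ± 0.16 (adjusted p = 0.71). Psmg1 was under the floor on both TI arrays, so its difference is a bound, at most -0.30. The TI arrays are also those with the higher plasma cell and macrophage sums and Gapdh ratios given above.

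**Figure D4:**
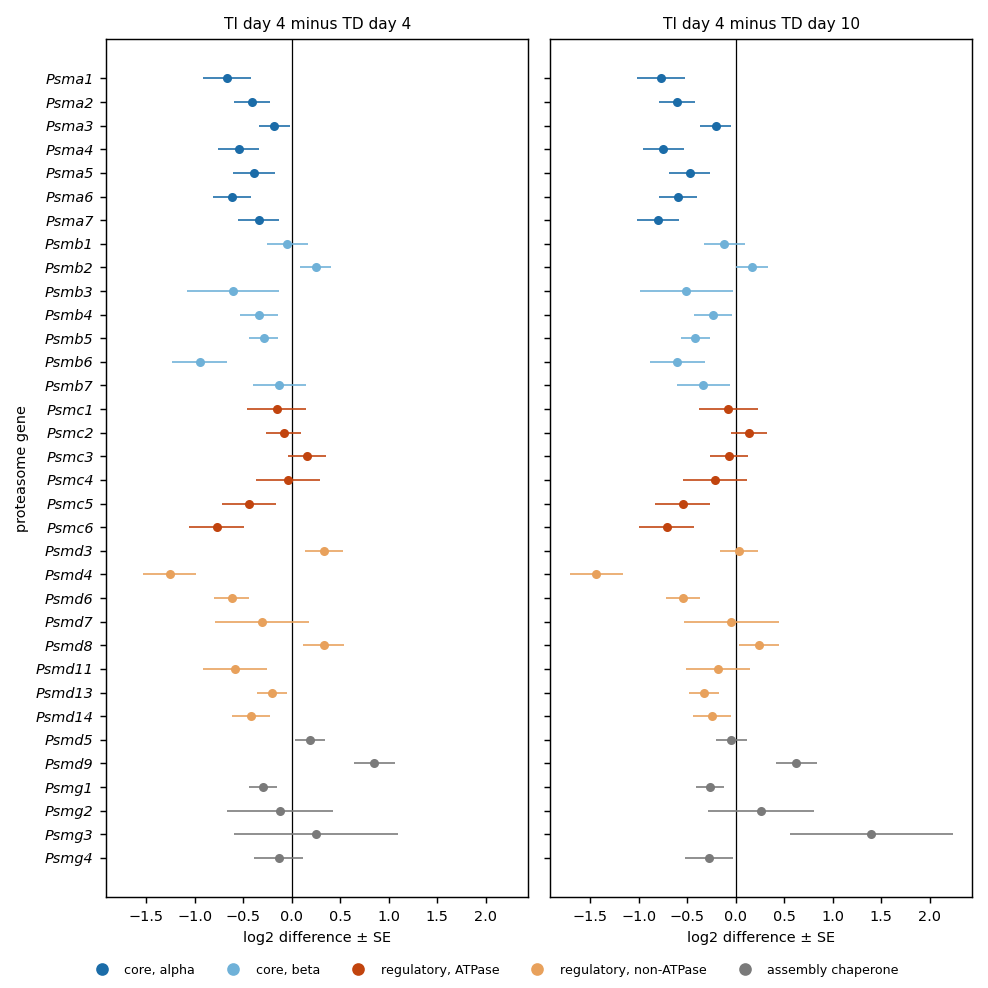
Points are the log2 difference of TI day 4 from TD day 4 (one panel) and from TD day 10 (the other) with its standard error, for each proteasome gene by class. All 7 alpha genes lie below 0 in both panels, Psmd4 is the lowest gene and Psmd9 among the highest.

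The T-dependent groups were compared last. In limma 0 of 34 genes were called between TD day 10 and TD day 4, as were 0% of all probe sets, and 0 genes had an unadjusted p under 0.05, against 373 probe sets. The median difference was 0.08.

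Core and regulatory genes were compared by their median log2 distance from each gene's mean. For the 14 core genes it was -0.30 and -0.34 on the resting arrays, -0.14 and -0.13 on the TI arrays, and 0.11 to 0.39 on the TD arrays. For the 14 regulatory genes it was -0.58 and -0.22, -0.06 and 0.08, and 0.12 to 0.21. The TI arrays thus lay below all TD arrays in both particles. Without Psmb6, 4 of 13 core genes and 8 of 14 regulatory genes in TI day 4 had both arrays above both resting arrays, against 21.6% of all probe sets. In TD day 4 these were 11 of 13 and 8 of 14, against 22.8% of all probe sets. In TD day 10 they were 11 and 9, against 25.9%. The TI counts depend on the probe set chosen. Other probe sets of Psmb1 had both TI arrays above both resting arrays, and another of Psmc3 overlapped. The median difference of TI day 4 from resting was 0.17 for these 13 core genes and 0.46 for the regulatory particle, and this gap between the particles was not tested.

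Genes around the proteasome followed in part. Of 6 tested associated factors, Sem1, a small subunit of the lid, read 630 and 588 in resting cells, 1137 and 1221 in TD day 4, 1107 and 1150 in TD day 10, and 1045 and 924 in TI day 4. It rose 1.94-fold in TD day 4 (limma adjusted p = 0.016), 1.85-fold in TD day 10 (adjusted p = 0.018) and 1.61-fold in TI day 4 (adjusted p = 0.043). All germinal centre arrays were above both resting arrays.

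Uchl5, a deubiquitinase bound to the regulatory particle, read 20 and 40 in resting cells, 143 and 225 in TD day 4, 170 and 163 in TD day 10, and 50 and 76 in TI day 4. It was at least 2.21-fold higher in TD day 4 (limma adjusted p = 0.033) and stayed under the floor in TI day 4. Uchl5 was above the floor on the TD arrays alone and was tested only because of them, so this call supports nothing further. Txnl1, a thioredoxin bound to the regulatory particle, rose 2.38-fold in TI day 4 (limma adjusted p = 0.03) and 2.09-fold in TD day 10 (adjusted p = 0.046). Pomp, the maturation factor of the core, rose 1.91-fold in the mean of the germinal centre groups (limma adjusted p = 0.039). Usp14 and Ecpas were not called.

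Of 4 shuttle factors Ubqln2, which carries ubiquitinated proteins to the proteasome, fell, reading 143 and 167 in resting cells, 124 and 135 in TD day 4, 17 and 55 in TD day 10, and 86 and 74 in TI day 4. It was at least 1.91-fold lower in TD day 10 (limma adjusted p = 0.017) and at least 1.85-fold lower in TI day 4 (adjusted p = 0.021). In limma 0 of 2 activator genes and 0 of 5 regulators were called. Of all probe sets, 9.4% to 13.2% were called in the comparisons with resting cells. In sets this small, 0 is near that share and sets neither apart. The regulator Nfe2l1 read 521 and 523 in resting cells, 391 and 382 in TD day 4, 422 and 374 in TD day 10, and 467 and 461 in TI day 4. All its germinal centre arrays were below both resting arrays, as in 12.1% of all probe sets. Its difference in TD day 4 was -0.43 ± 0.15 (limma adjusted p = 0.14). Of the 3 immunoproteasome genes, Psmb9 read 641 and 764 in resting cells, 1000 to 1133 over the TD arrays, and 1274 and 1281 in TI day 4, rising 1.83-fold in TI day 4 (limma adjusted p = 0.026). Psmb8 and Psmb10 were not called.

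With the Gapdh 3' to 5' ratio as a covariate, an alternative chosen after seeing the data, 4 genes were called in TD day 4, 3 in TD day 10, 1 in TI day 4 and 9 in the mean of the germinal centre groups. Of all probe sets, 7.78%, 6.77%, 7.64% and 13% were called in the same order. Fitting only the arrays compared left 0 called against resting in each germinal centre group. The share of all probe sets called there was 1.63% for TD day 4, 2.69% for TD day 10 and 1.38% for TI day 4. For 34 genes, 0 is near that share. With a common array median 4 were called in TD day 10, where 10.4% of all probe sets were. With 2 arrays a group, the number of arrays limits every value above.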

How the data were processed

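Sorted B cells gave 8 Affymetrix arrays, 2 a group, of total RNA extracted with RNAzol and biotin-labelled per the labels' protocols. The deposited values are intensities made by the authors on a linear scale, whole numbers with 30.1% at or below 0. How they were scaled, and with what software, was not given in the sources used here. After trimming, each array's mean was about 200.2, so they were used without further normalization. Values below the 50th percentile of all values (81) were set to it and log2 was taken. A probe set had to exceed it on at least 2 arrays, and 7253 of 12488 did so once 66 controls were removed. In the probe annotation 10855 probe sets name 1 gene, 396 several and 1237 none.

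One model of 4 groups on all 8 arrays was fitted in limma 3.58.1 under R 4.3.3 (4 residual and 2.20 prior degrees of freedom), two-sided, with Benjamini-Hochberg adjustment over all probe sets in each of 7 comparisons at 0.05. The method was tested on simulated data. The genes and lists were chosen with earlier results of these data known. Values on every array are given for each gene called in any comparison and, in each class, for the 3 genes with the smallest p between TI day 4 and TD day 4. Of other pathway genes those called are named. Arrays of the same replicate number were not taken as pairs. Alternatives were other normalizations, floors, filters and priors, a replicate block, only the arrays compared, array weights, other rules for several probe sets, and leaving out each array. A Gapdh ratio covariate and a crossed replicate block were added after seeing the data. Promoter sequences are from RefSeq (GRCm38.p6).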

Additional observations from a re-analysis of the deposited data

Results flagged for a closer look

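Psmd9 stood apart because both TI day 4 arrays were above both resting arrays while both TD day 4 arrays were below them. The difference between the 2 groups was 0.85 on the log2 scale (limma adjusted p = 0.14) and did not pass.

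Psmd3 stood apart because both TD day 10 arrays (781 and 848) were above both resting arrays (761 and 746) and both TD day 4 arrays (629 and 691) were below them. The difference was 0.30 on the log2 scale (limma adjusted p = 0.96) and did not pass. Groups of 2 arrays were not examined for single outlying arrays.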

How the results depend on the processing

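Calls against resting depended on the setting, and so did the share of all probe sets called. In nearly every fit without an array that share was lower, so low counts there are not particular to these genes. All 24 called gene differences kept their sign in every alternative, but they were picked by these same data and their arrays did not overlap. Leaving out an array or changing the prior could therefore not turn a sign. A common array median gave 4 called genes in TD day 10 and 5 in the mean of the germinal centre groups, and higher calls made up 48.1% of all TD day 10 calls, against 59.2%. It moved the median of all probe sets to -0.04 in TD day 10. A floor at the 40th percentile gave 5 in TD day 10 and 0 in TI day 4, and at the 60th 1 in each of TI day 4 against TD day 4 and TD day 10. No filter gave 0 in TI day 4. The replicate block gave 3 for TD day 4, 3 for TD day 10 and 4 for the germinal centre mean; same-numbered arrays correlated between -0.217 and 0.121 in their deviations from the group means, so no pairing was shown. Only the arrays compared gave 0 against resting in every germinal centre group (TD day 4, TD day 10, TI day 4: 0 each). Of all probe sets, 1.63%, 2.69% and 1.38% were called in these fits, so 0 is near that share. Array weights gave 1 for TI day 4 against TD day 10 and, against resting, 3 for TD day 4, 2 for TD day 10, 0 for TI day 4 and 3 for the germinal centre mean. The Gapdh ratio gave 3 for TD day 10, 1 for TI day 4, 4 for TD day 4 and 9 for the germinal centre mean, and a crossed replicate block on only the arrays compared, where resting and TD day 10 correlated at the low end, gave 0 in TD day 10. Leaving out each array gave 0 to 4 in TD day 4, 0 to 5 in TD day 10, 0 to 1 in TI day 4, 2 to 6 in the germinal centre mean, and 0 to 0 in the comparisons among germinal centre groups. Signs turned for Psmb4 in TI day 4 against TD day 4 (0.11 with all probe sets averaged) and Psmc3 (-0.021 with all probe sets averaged; 0.33 without TI day 4 replicate 1 and -0.013 without replicate 2). Apart from the construction of each setting, the cause was not tested. Signal over background limits Psmb6, Psmg1 and Psmg2, and no level could be given for 4 genes.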
